A study of Mus musculus with 2 samples.

Results

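The genes described here are 60 members of the WNT pathway, measured in the facial prominence of the mouse embryo at day 12.5. They were chosen by symbol and not by a minimum level, although earlier results of these data were known. They comprised 19 Wnt ligands, the ligand-modifying enzyme Porcn, 10 Frizzled receptors, 2 Lrp co-receptors, 4 R-spondins and 3 Lgr receptors. The others were 6 antagonists that bind WNT, 4 Dkk proteins, 7 cytoplasmic effectors and 4 LEF/TCF transcription factors. All 60 symbols matched an identifier in the gene tables, which held 43346 mouse gene identifiers, 21474 of them protein-coding in the annotation. Total RNA of healthy B6NCrl embryos, an unmanipulated strain with no transgene or treatment in the labels, was sequenced in 2 libraries. Replicate 1 was made from 120 pooled embryos and replicate 2 from 88, both sexes were mixed in each pool, and 10 ng of RNA went into each library. The series has 1 group, so no condition is compared with another. An exact permutation test of 2 libraries against 2 could not fall below p = 0.33, so no p-value is given anywhere.

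WNT proteins are secreted glycoproteins that carry a lipid, added by Porcn, and bind Frizzled receptors together with Lrp5 or Lrp6. In the canonical branch, binding stops the destruction complex built on Axin and Apc from degrading beta-catenin, which then enters the nucleus and turns LEF/TCF factors from repressors into activators. Other WNTs, with Wnt5a as the best known, act through receptors such as Ror2 on cell shape and movement. In the mouse face, ectodermal WNT signals support growth and fusion of the prominences, and loss of Wnt9b, of Lrp6 or of Rspo2 in mice causes clefts.

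The facial label was checked against fixed marker genes. Summed levels of 6 facial mesenchyme markers, among them Msx1 and Prrx1, were 760.9 and 760.5 TPM in replicates 1 and 2, where TPM is the level after correction for transcript length and library depth. Those of 7 surface epithelium markers were 329 and 341 TPM. The libraries also held RNA of other tissues. Markers of erythroid cells summed to 9270 and 8419 TPM (4 genes), of skeletal muscle to 349 and 413 TPM (4 genes), of neurons to 313 and 242 TPM (3 genes), of lens to 177 and 416 TPM (3 genes) and of endothelium to 151 and 148 TPM (4 genes). Markers of peripheral glia and of macrophages (3 genes each) and of retina and forebrain (4 genes) summed to 21.3 to 48.4 TPM, and those of hepatocytes to 0.41 and 0.64 TPM, with 2 of 3 under 3 counts in each library. Summed expected counts, the estimated reads per gene, were 27890681 and 39969716.

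Most of the pathway was transcribed in this tissue. In both libraries 53 of the 60 members, or 88.3%, reached 1 TPM, beside 61.8% of all protein-coding genes (13275 of 21474). A mean of 10 TPM or more was found for 35 members, or 58.3%, beside 42.4% of protein-coding genes. The median of the members' mean levels was 13.3 TPM, beside 5.24 TPM over all protein-coding genes. Together the members summed to 2155 and 2166 TPM. Ctnnb1, Sfrp2 and Tcf7l2 alone passed a mean of 100 TPM among the members, and their ranks among protein-coding genes were 194, 272 and 1374. Fewer cells that use a gene and less of its RNA per cell cannot be told apart in RNA of whole tissue.

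**Figure D1:**
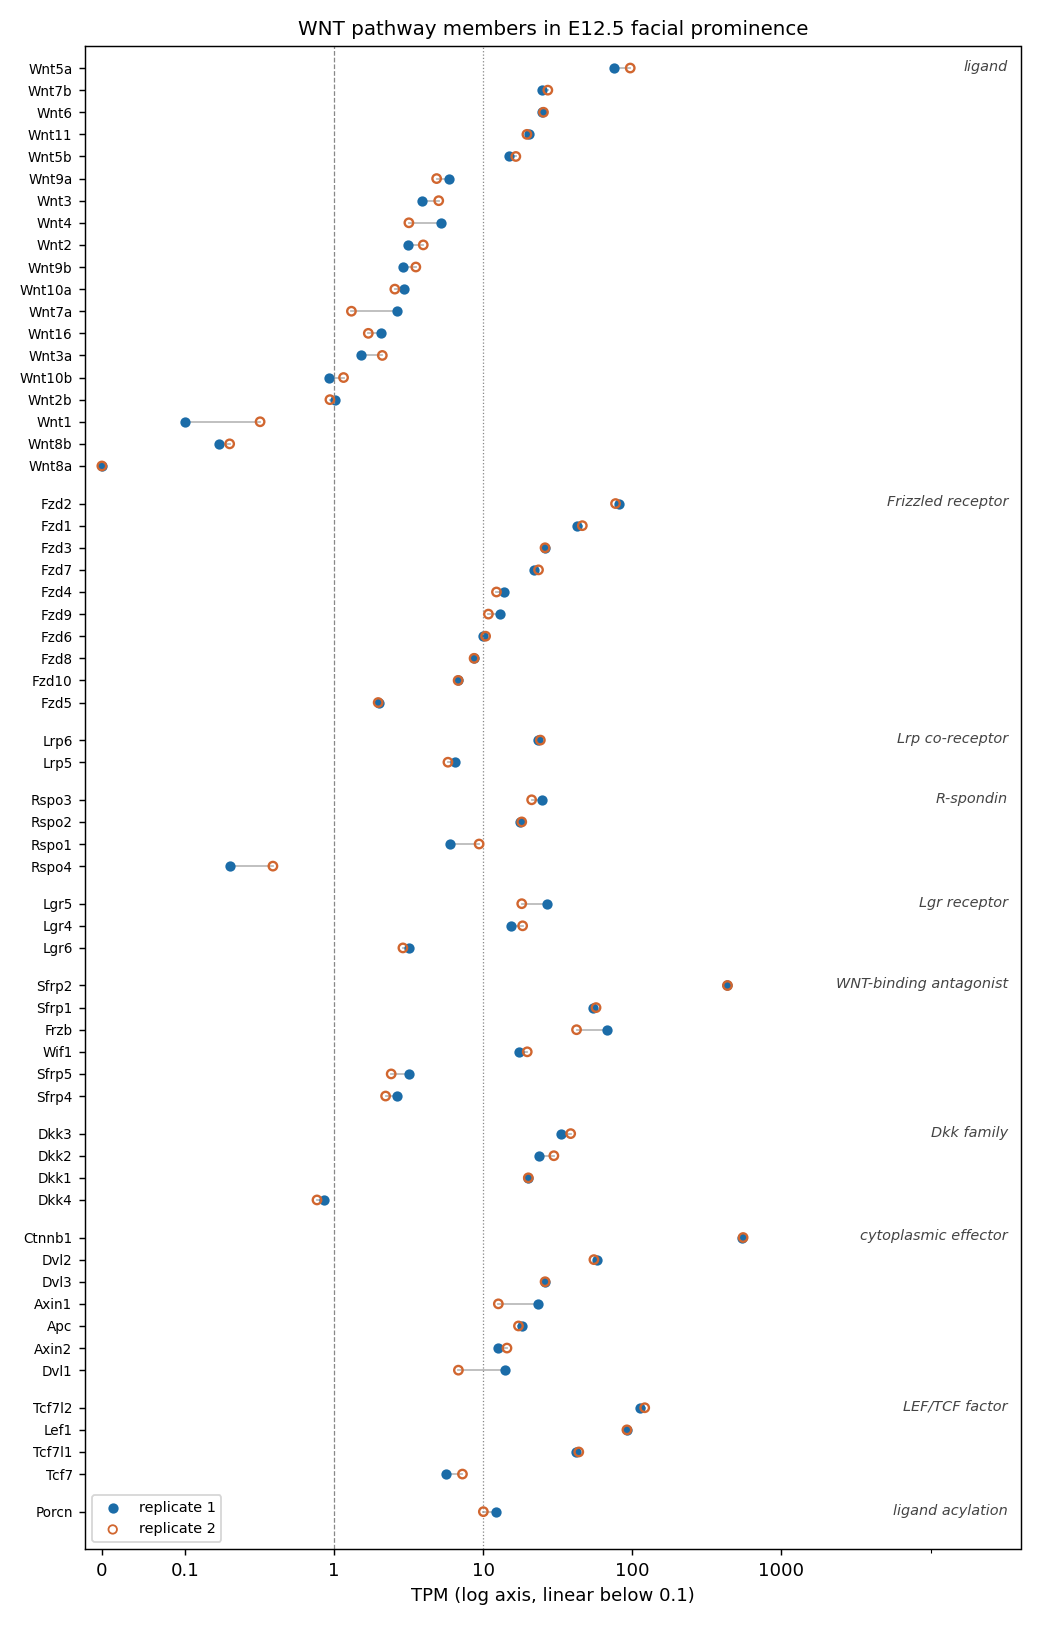
Level of each of the 60 members in TPM (log axis, linear below 0.1), grouped by class and ordered by mean within it; filled points are replicate 1 and open points replicate 2, with lines at 1 TPM (dashed) and 10 TPM (dotted). Levels run from 0 TPM for Wnt8a to 553 TPM for Ctnnb1 in replicate 2, and the 2 points of most genes lie close together.

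Among the ligands, Wnt5a stood above the others. Wnt5a (chr14:28504750-28527448, plus strand, GRCm38), which directs outgrowth and cell polarity, was at 75.9 TPM in replicate 1 and 96.8 TPM in replicate 2, from 5939 and 10299 expected counts. It made up 39.3% and 44.7% of the summed ligand level. Its values lay above those of all other ligands in both libraries, although they differed by more between the pools than those of Wnt6 or Wnt11. The other ligands over 10 TPM were Wnt7b, Wnt6, Wnt11 and Wnt5b. Wnt7b, an epithelial ligand in many organs, was at 24.8 and 27.2 TPM. Wnt6, expressed in surface ectoderm, was at 24.9 and 25.4 TPM, within the range of Wnt7b, so the order of this pair is not resolved. Wnt11, a relative of Wnt5a in its use of the non-canonical branch, was lower, at 20.5 and 19.7 TPM. Wnt5b, the paralogue of Wnt5a, had 14.8 and 16.6 TPM. Within each library Wnt5a exceeded Wnt5b 5.47-fold (log2 2.45 ± 0.13) and Wnt11 4.28-fold (log2 2.10 ± 0.29).

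Another 9 ligands reached 1 TPM in both libraries with means under 10 TPM. They formed a run from Wnt9a, at 5.92 and 4.88 TPM, over Wnt3, Wnt4, Wnt2, Wnt9b, Wnt10a, Wnt7a and Wnt16 to Wnt3a, at 1.53 and 2.11 TPM. The range of each over the libraries overlapped that of its neighbour in this order, although the ends of the run did not overlap. Within each library Wnt2 lay above Wnt9b and Wnt10a above Wnt7a. The other neighbours changed order between the libraries and are not resolved. Wnt9b, the ligand of the facial ectoderm whose loss gives cleft lip in mice, was at 2.91 and 3.54 TPM. Wnt3, which a human limb and face malformation syndrome links to the same tissue, was at 3.88 and 5.04 TPM. Both were thus more than 10 TPM below the least abundant of the leading ligands. Wnt4, known for kidney and ovary development, was at 5.24 and 3.18 TPM and lay under Wnt11 by a log2 ratio of TPM of -1.96 in replicate 1 and -2.63 in replicate 2. On CPM, which is not divided by length, that mean ratio was -0.87 and the 2-fold call was lost. Wnt10a, a ligand of tooth and hair, was at 2.95 and 2.56 TPM. Wnt2, a lung and placenta ligand, had 3.13 and 3.97 TPM, and Wnt16, active in bone, had 2.06 and 1.70 TPM.

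Wnt2b and Wnt10b lay at the 1 TPM line, with 1.02 and 0.94 TPM for Wnt2b and 0.93 and 1.16 TPM for Wnt10b. Wnt1, a ligand of the midbrain and dorsal neural tube, rested on 4 and 18 counts, or 0.10 and 0.32 TPM, whose exact 95% Poisson intervals were 0.0274 to 0.257 TPM for replicate 1 and 0.189 to 0.504 TPM for replicate 2. Wnt8b, a forebrain ligand, had 10 and 16 counts, or 0.17 and 0.20 TPM. Wnt8a, a ligand of the gastrula, had no count in either library, which allows a level of up to 0.104 TPM at the depth of replicate 1 and 0.0735 TPM at that of replicate 2 (a count of 3). These bounds describe counting error alone, because PCR copies of a molecule were not told apart. The level of these genes is therefore known only as low.

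Several Wnt genes sit in conserved pairs on a chromosome, and in 3 of 4 adjacent pairs the levels were more than 2-fold apart in both libraries. The share of other gene pairs that far apart was not computed. Wnt6 and Wnt10a, 6.19 kb apart in the same orientation on chromosome 1, were 9.15-fold apart, with log2 ratios of TPM of 3.08 in replicate 1 and 3.31 in replicate 2. Wnt10b and Wnt1, 11.7 kb apart on chromosome 15 on opposite strands, were 5.81-fold apart, from few counts of Wnt1, with log2 ratios of 3.22 in replicate 1 and 1.86 in replicate 2. With a pseudocount of 1 TPM on both genes their mean log2 ratio was 0.76 and the 2-fold call was lost. Wnt9a and Wnt3a, 16.2 kb apart on chromosome 11 on opposite strands, were 2.99-fold apart, with log2 ratios of 1.95 and 1.21, and with the pseudocount this call was lost as well. Wnt3 and Wnt9b, 24.3 kb apart on chromosome 11 on opposite strands, were 1.38-fold apart, with log2 ratios of 0.42 and 0.51. None of these pairs has a protein-coding gene between its members. Wnt2 and Wnt16 share chromosome 6, but 9 protein-coding genes lie between them, and their log2 ratios of 0.60 and 1.22 were past 2-fold in replicate 2 alone.

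Porcn, which attaches the lipid without which WNTs are not secreted, was at 12.3 and 10.0 TPM. Wls, the carrier that takes the lipidated ligand to the cell surface and a gene outside the 60, was at 96.7 and 105 TPM.

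All 10 Frizzled genes reached 1 TPM in both libraries, and their levels were close between the pools. Fzd2, a receptor linked to Wnt5a signalling and to human facial and limb malformation, was at 81.0 and 77.2 TPM and made up 36.0% and 34.5% of the class. Fzd1 followed with 42.3 and 46.2 TPM, then Fzd3, a receptor of axon guidance, with 25.9 and 26.0 TPM, and Fzd7, a close relative of Fzd1 and Fzd2, with 21.8 and 23.5 TPM. These positions were the same in both libraries, without overlap. Fzd4, the norrin receptor of retinal vessels, had 13.8 and 12.3 TPM and overlapped Fzd9, with 12.9 and 10.9 TPM. Fzd6, which acts in hair orientation, had 9.94 and 10.4 TPM. Below a mean of 10 TPM were Fzd8 at 8.64 and 8.70 TPM, Fzd10 at 6.74 and 6.80 TPM, and Fzd5, an eye receptor, at 2.02 and 1.98 TPM. Of the fixed Frizzled pairs, Fzd2 exceeded Fzd7 3.49-fold, Fzd8 exceeded Fzd5 4.34-fold and Fzd3 exceeded Fzd6 2.56-fold. Fzd1 over Fzd7 was 1.95-fold and thus under 2-fold in both libraries.

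Of the co-receptors, Lrp6 was the higher, at 23.5 and 24.2 TPM, against 6.48 and 5.81 TPM of Lrp5. The ratio was 3.88-fold (log2 1.96 ± 0.14, SD, n = 2). Lrp6 loss in mice gives facial clefts, whereas Lrp5 is best known for bone mass.

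R-spondins strengthen WNT signals by binding Lgr receptors and removing the ubiquitin ligases that clear Frizzled from the membrane. Rspo3 was at 24.9 and 21.2 TPM and Rspo2 at 17.6 and 18.2 TPM, without overlap and 1.28-fold apart. Rspo1, the sex-determination member, was at 5.98 and 9.40 TPM, from 173 and 404 counts. Rspo4, the nail member, had 8 and 22 counts, or 0.20 and 0.39 TPM, with Poisson intervals of 0.087 to 0.397 TPM and 0.245 to 0.592 TPM. It lay 26.8-fold under Rspo1 (log2 ratio 4.75), and with a pseudocount of 1 TPM the log2 ratio was 2.72. Among the receptors, Lgr5, a stem cell marker and WNT target, was at 26.9 and 18.2 TPM, and Lgr4 was at 15.4 and 18.4 TPM. Lgr4 was thus lower than Lgr5 in replicate 1 and near it in replicate 2, with log2 ratios of -0.80 and 0.02. Lgr6 was the lowest, at 3.18 and 2.90 TPM, 7.27-fold under Lgr5.

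The secreted antagonists that bind WNT itself outweighed the ligands at the RNA level. Their summed level was 579 and 558 TPM, against 193 and 217 TPM of the 19 ligands, a mean ratio of 2.78-fold (log2 1.47 ± 0.15, n = 2). Frizzled receptors summed to 225 and 224 TPM, near the ligands (log2 ratio 0.13 ± 0.12). This excess came from Sfrp2 (chr3:83766321-83774316, plus strand), a soluble protein with a Frizzled-like WNT-binding domain, at 433.5 and 434.3 TPM, or 74.9% and 77.8% of its class. Sfrp1 was at 54.9 and 57.1 TPM, 7.75-fold under Sfrp2. Frzb, also called Sfrp3 and active in cartilage, was at 67.6 TPM in replicate 1 and 42.3 TPM in replicate 2, so it lay above Sfrp1 in one library and below it in the other. Wif1, a WNT-binding protein of another fold, had 17.3 and 19.8 TPM. Sfrp5 and Sfrp4 were low, at 3.18 and 2.42 TPM and at 2.66 and 2.22 TPM. Sfrp1 exceeded Sfrp5, its closest relative, 20.2-fold, and Frzb exceeded Sfrp4, with which it forms the other branch of the family, by a log2 ratio of 4.46 ± 0.29 (n = 2).

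Dkk proteins mostly act on Lrp5 and Lrp6. Dkk3, a divergent member without clear Lrp binding, was the highest, at 33.2 and 38.6 TPM. Dkk2 was at 23.6 and 29.8 TPM, above Dkk1, the inhibitor needed for head formation in mice, at 20.0 and 20.1 TPM. No pair among these 3 genes that was compared reached 2-fold, with Dkk3 over Dkk1 at 1.79-fold and Dkk2 over Dkk1 at 1.32-fold. Dkk4 had 18 and 23 counts, or 0.86 and 0.77 TPM. The Dkk class summed to 83.5 ± 8.18 TPM, against 29.98 ± 0.04 TPM of Lrp5 and Lrp6 together (SD, n = 2). Dkk3, without clear Lrp binding, made up 42.7% and 43.3% of the Dkk sum.

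**Figure D2:**
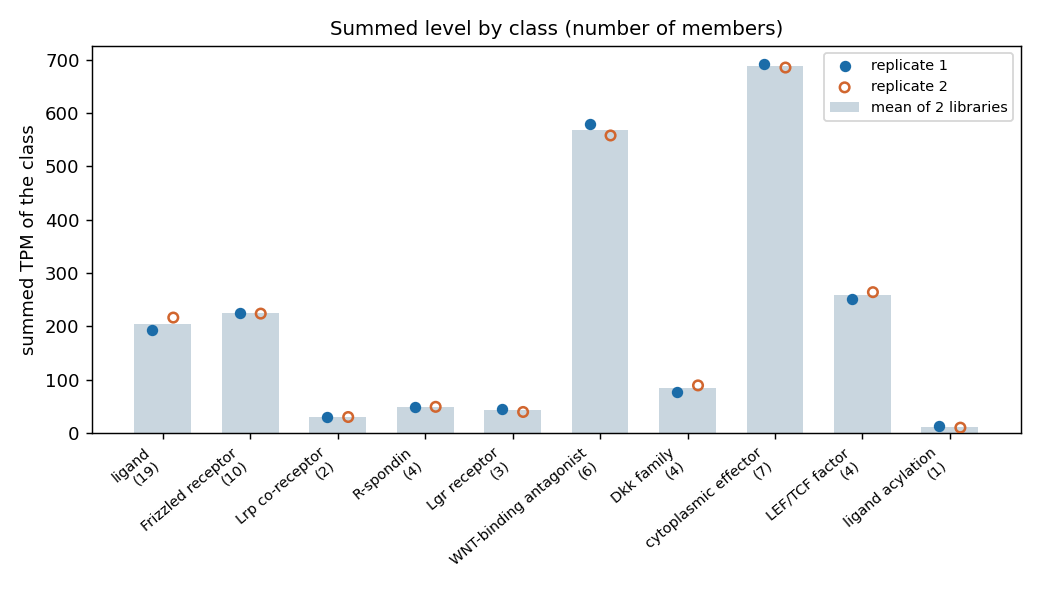
Summed TPM of each class of members, with the number of members in brackets; bars are means of the 2 libraries, filled points replicate 1 and open points replicate 2. The antagonists, at 579 and 558 TPM, stand over the ligands at 193 and 217 TPM and the Frizzled receptors at 225 and 224 TPM.

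All 7 cytoplasmic effectors had a mean of 10 TPM or more. Ctnnb1, which codes for beta-catenin and also serves cell adhesion, was at 539.5 and 553 TPM and made up 78.0% and 80.7% of the class. Of the scaffolds that destroy beta-catenin, Apc was at 18.2 and 17.3 TPM. Axin2, a feedback gene that the pathway itself switches on, was at 12.5 and 14.5 TPM. Axin1, the constitutive scaffold, was at 23.2 and 12.7 TPM, so that Axin2 over Axin1 had log2 ratios of -0.89 and 0.19 and no settled order. Dishevelled proteins pass the signal on from Frizzled. Dvl2 was at 58.2 and 55.3 TPM and Dvl3 at 26.0 TPM in both libraries, a ratio of 2.18-fold. Dvl1 was at 13.9 and 6.83 TPM, and Dvl1 over Dvl3 was past 2-fold in replicate 2 alone.

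Dvl2 needs a caution. Of its 6298 exon bases, 1151 overlap exons of Acadvl on the opposite strand, a fatty acid oxidation gene at 55.3 and 57.9 TPM. Whether the libraries or the counting kept strand is not stated, so reads in that overlap cannot be told apart. The same holds for Ctnnb1 with Ulk4 (759 bases, Ulk4 at 3.64 and 3.49 TPM), Wnt5a with Gm2670 (358 bases, 5.49 and 6.10 TPM) and Sfrp2 with Gm26771 (347 bases, 7.49 and 5.93 TPM). Lef1 shares 1208 bases with Gm43352 and Rspo3 shares 404 bases with Gm48159, but neither of these opposite-strand genes had an entry in the gene tables. In all, 13 of the 60 members overlap exons of a gene on the opposite strand. The share of all protein-coding genes with such an overlap was not computed.

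The LEF/TCF factors bind WNT response elements and carry beta-catenin on them. Tcf7l2, also called TCF4, was the highest, at 112 and 121 TPM. Lef1 was at 92.4 and 92.0 TPM, 1.26-fold lower and without overlap. This order holds for TPM summed over all transcripts of a gene. On CPM the mean log2 ratio of Lef1 over Tcf7l2 was 0.05. Transcripts annotated as protein-coding held 56.8% and 52.9% of the TPM of Tcf7l2, and 90.8% and 92.6% of that of Lef1. Tcf7l1, mostly a repressor, was at 41.6 and 43.8 TPM, 2.73-fold under Tcf7l2. Tcf7, also called TCF1 and best known from T cells, was at 5.67 and 7.27 TPM, 14.4-fold under Lef1.

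**Figure D3:**
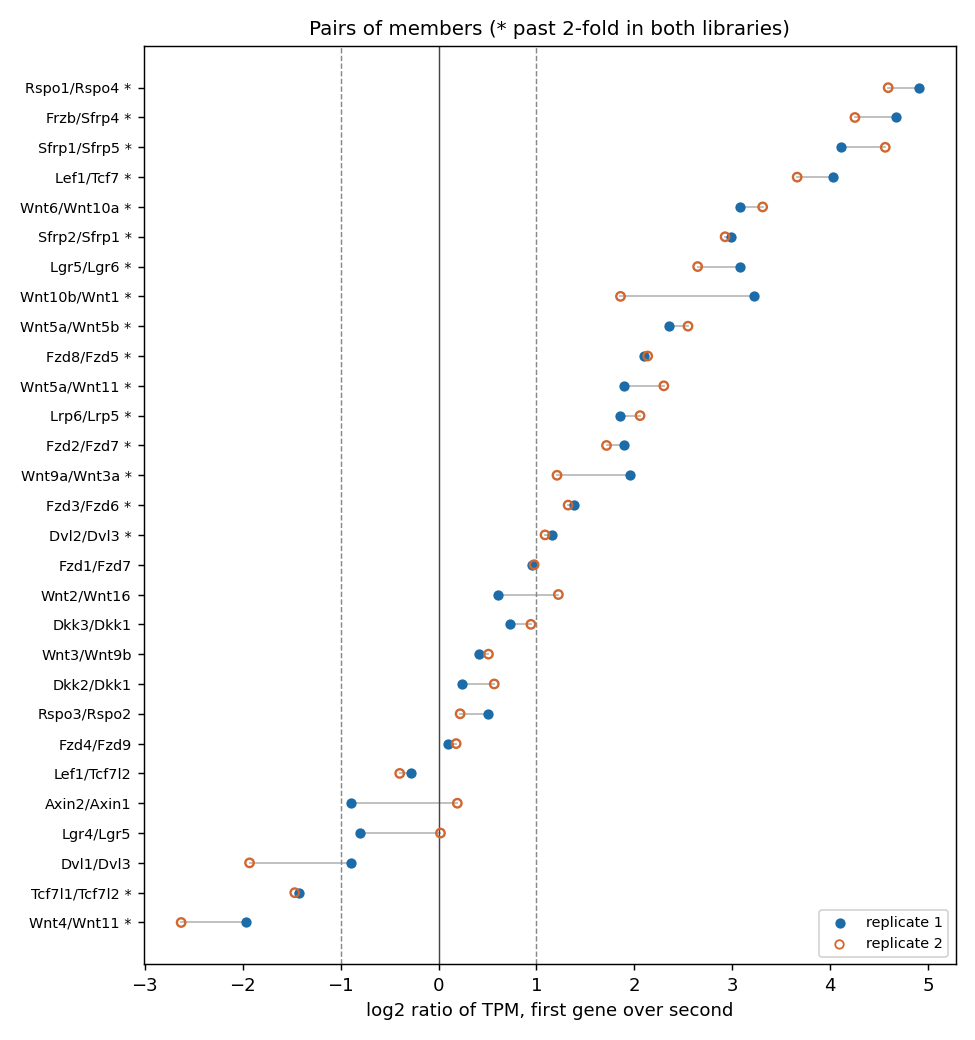
Log2 ratio of TPM within each library for the 29 fixed pairs (filled points replicate 1, open points replicate 2); dashed lines mark 2-fold and an asterisk a ratio past 2-fold in the same direction in both libraries. This held for 18 pairs, 16 with the gene named first higher and 2 with it lower (Tcf7l1 under Tcf7l2 and Wnt4 under Wnt11), and not for 11. The split of 16 and 2 depends on which gene was named first, and the share of other gene pairs past 2-fold was not computed.

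LEF/TCF proteins differ by alternative exons as well as by gene. Alternative starts can leave out the beta-catenin binding end, and alternative exons near the other end decide whether the protein carries an extra DNA-contacting tail. The 5 cassette exons on which the transcripts of Lef1 and Tcf7l2 turned are shown here as spliced, from the GENCODE M21 transcripts (GRCm38, plus strand), with the exon in capitals and 15 bases of each neighbouring exon in lower case. The Lef1 exons are the 84 bases at chr3:131191023-131191106 and the 41 bases at chr3:131204933-131204973. The Tcf7l2 exons are the 51 bases at chr19:55924530-55924580, the 73 bases at chr19:55925977-55926049 and the 25 bases at chr19:55927730-55927754.
Lef1 exon of 84 bases: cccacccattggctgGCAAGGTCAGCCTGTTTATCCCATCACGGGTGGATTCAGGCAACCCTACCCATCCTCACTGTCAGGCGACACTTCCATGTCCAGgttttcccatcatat
Lef1 exon of 41 bases: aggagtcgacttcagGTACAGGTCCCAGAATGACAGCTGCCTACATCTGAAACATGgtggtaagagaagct
Tcf7l2 exon of 51 bases: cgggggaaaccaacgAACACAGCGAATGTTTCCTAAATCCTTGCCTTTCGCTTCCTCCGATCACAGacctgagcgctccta
Tcf7l2 exon of 73 bases: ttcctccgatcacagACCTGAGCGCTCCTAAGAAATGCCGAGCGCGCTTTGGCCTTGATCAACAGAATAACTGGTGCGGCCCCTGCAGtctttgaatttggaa
Tcf7l2 exon of 25 bases: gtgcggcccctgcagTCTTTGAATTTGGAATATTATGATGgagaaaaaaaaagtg

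Lef1 was made mostly as the form without the exon of 84 bases, in nearly equal shares in both libraries. The deposited isoform share, the percentage of a gene's TPM given to a transcript, was 54.8% and 55.3% for Lef1-202, which skips that exon and codes for 369 amino acids. It was 28.6% and 29.2% for Lef1-204, which skips both exons and codes for 384. Lef1-201, which holds both and codes for 397, had 7.43% and 8.05%. The exon of 84 bases, a multiple of 3 that leaves the frame intact, was thus held by 7.74% ± 0.44 and skipped by 84.0% ± 0.81 of the gene's TPM (SD, n = 2). The exon of 41 bases was held by 62.8% ± 0.78 and skipped by 28.9% ± 0.47. Where it is present, the reading frame ends inside it, with the last coding base before the stop codon at position 131204964. Where it is skipped, the frame runs on to position 131223152 in the last exon.

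Transcripts of Lef1 that read from the common start, and so code for the beta-catenin binding end, held 91.7% ± 1.25 of its TPM. Lef1-203, whose reading frame begins at a later start, had no count in either library. The rest belonged to transcripts annotated as retained introns with no reading frame. Lef1-206 is the larger of these, at 8.43% and 6.79%, and 1975 of its 2066 bases lie in its last exon. It begins at position 131112797, as Lef1-203 does, and Lef1-205 begins at 131112806. Lef1-201, Lef1-202 and Lef1-204 begin at 131110471.

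Tcf7 had 2 annotated transcripts, with the same reading frame of 303 codons. Tcf7-201 held 90.1% in replicate 1 and 76.2% in replicate 2, from 212 and 326 counts. Tcf7-202 held 9.88% and 23.8%, from 16.1 and 70.4 counts. The shares thus differed by more between the pools than those of Lef1, at a lower depth.

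Tcf7l2 was spread over 22 transcripts, and its shares depend on how length enters. Tcf7l2-209, which holds all 3 Tcf7l2 exons shown and codes for 459 amino acids, had 32.9% and 31.6% of TPM, and 46.3% and 46.7% of expected counts. Tcf7l2-206, a short transcript annotated as a retained intron, had 26.3% and 27.6% of TPM but 9.87% and 10.9% of counts. All transcripts annotated as retained introns together made up 44.6% ± 2.83 of TPM and 21.9% ± 1.39 of counts. Reading frames from starts other than the common one made up 0.715% ± 0.417 of TPM.

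The exon of 51 bases was held by Tcf7l2 transcripts with 47.9% ± 2.32 of TPM and skipped by others with 6.53% ± 0.658. The exon of 73 bases, which codes for part of the cysteine-rich clamp found in long tails of this family, was held by 46.1% ± 1.65 and skipped by 8.37% ± 1.33. The exon of 25 bases, which ends the frame of Tcf7l2-209, was held by 32.5% ± 0.643 and skipped by 21.9% ± 2.33. These sums take exon structures from M21, whereas the tables were made with M4, and 17 of the 22 transcripts have the same length in both. Over those 17 alone, which hold 53.7% of TPM, each of the 3 exons was held by 32.5% and skipped by 2.51%. For each of the 3 exons, the share that skips it thus rests mostly on transcripts whose structure was not checked.

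Over the 3 genes, 5 of 30 transcripts, or 16.7%, had a share of 10% or more in both libraries: Lef1-202, Lef1-204, Tcf7-201, Tcf7l2-206 and Tcf7l2-209. The same line was passed by 31.7% of the transcripts of protein-coding genes that have several transcripts and a mean of 1 TPM or more.

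**Figure D4:**
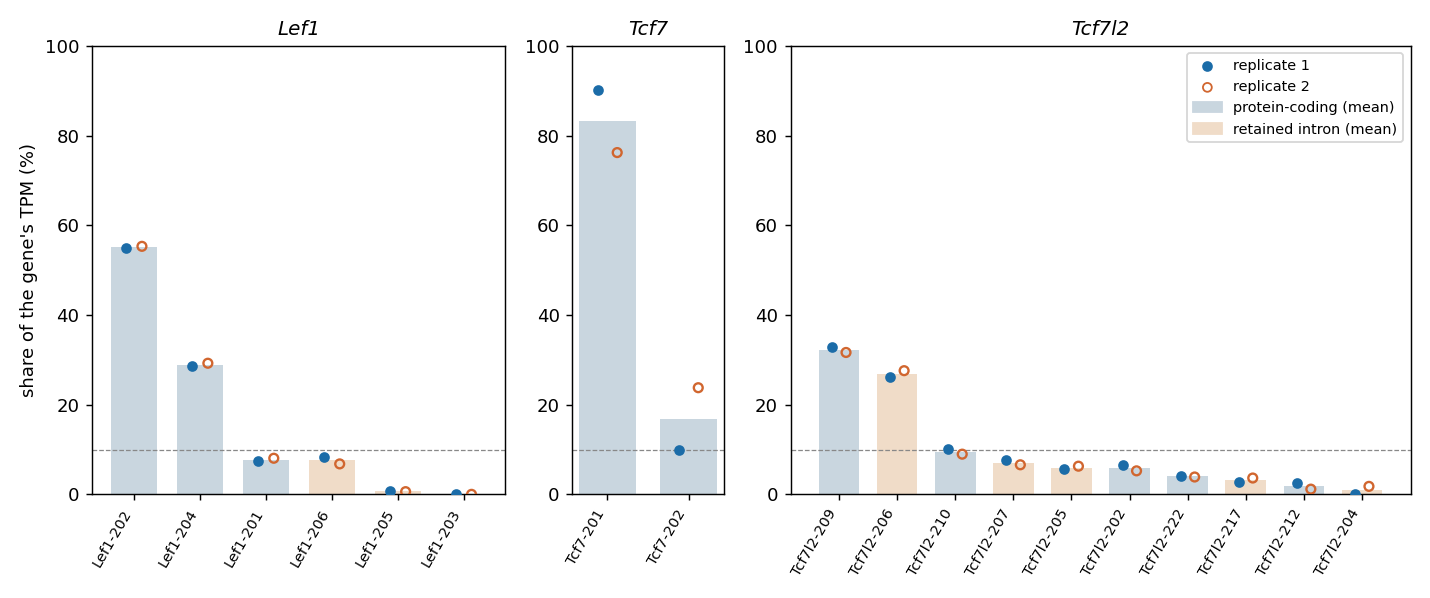
Isoform shares of Lef1, Tcf7 and Tcf7l2 as a percentage of the gene's TPM, for all transcripts of Lef1 and Tcf7 and those of Tcf7l2 that reach 1% in a library; bars are means, filled points replicate 1, open points replicate 2, and the dashed line is 10%. Lef1-202 leads Lef1 at 54.8% and 55.3%, and Tcf7-201 differs between the libraries, at 90.1% and 76.2%.

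No member differed by more than 2-fold between the libraries on the log2(TPM + 1) scale, which understates the change of low genes. With a pseudocount of 0.1 TPM in place of 1 TPM, Dvl1 (log2 difference -1.02) and Wnt1 (1.07) were past 2-fold. The matching share of protein-coding genes was not computed. On the log2(TPM + 1) scale, 0.252% of all protein-coding genes with a mean of 1 TPM or more were past 2-fold (34 of 13490). The median size of the difference was 0.15 log2 units over the members and 0.08 over those genes. Past 1.5-fold on the log2(TPM + 1) scale were 4 members, all lower in replicate 2, or 7.41% of the 54 with a mean of 1 TPM or more. Rspo1 (0.575, higher in replicate 2) and Wnt4 (-0.578, lower) fell just short of that line. Past that line were 0.786% of protein-coding genes lower and 0.66% higher in replicate 2.

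The 4 members past 1.5-fold on that scale were Dvl1, Axin1, Frzb and Wnt7a. Dvl1 was at 6.83 TPM in replicate 2, against 13.9 TPM in replicate 1, a log2 difference of -0.93. Axin1 was at 12.7 TPM in replicate 2, against 23.2 TPM in replicate 1 (-0.83). Both lie in the fifth of genes with the highest GC content, at 60.6% and 56.6%, in which 1.86% of genes were past 1.5-fold lower in replicate 2. Frzb, at 42.3 TPM in replicate 2 against 67.6 TPM in replicate 1 (-0.66), has 50.3% GC. Wnt7a, a ligand of neural tissue and limb ectoderm, was at 1.31 TPM in replicate 2, against 2.65 TPM in replicate 1 (-0.66). Its counts were 100 and 97, and its deposited effective length was 3073 and 2095 bases in the same order. On CPM, without a pseudocount, its log2 difference was -0.48 and that of Frzb -0.55, both under 1.5-fold. Past 1.5-fold on CPM were Dvl1 (-0.92), Axin1 (-0.77) and Wnt4 (-0.73), lower in replicate 2. Rspo1 (0.70) was past it in the other direction, as were Rspo4 (0.94) and Wnt1 (1.65), both from under 30 counts. Lens markers were higher in replicate 2, at 416 against 177 TPM, and neuron markers lower, at 242 against 313 TPM. Their part in these differences, and that of GC content, was not tested.

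**Figure D5:**
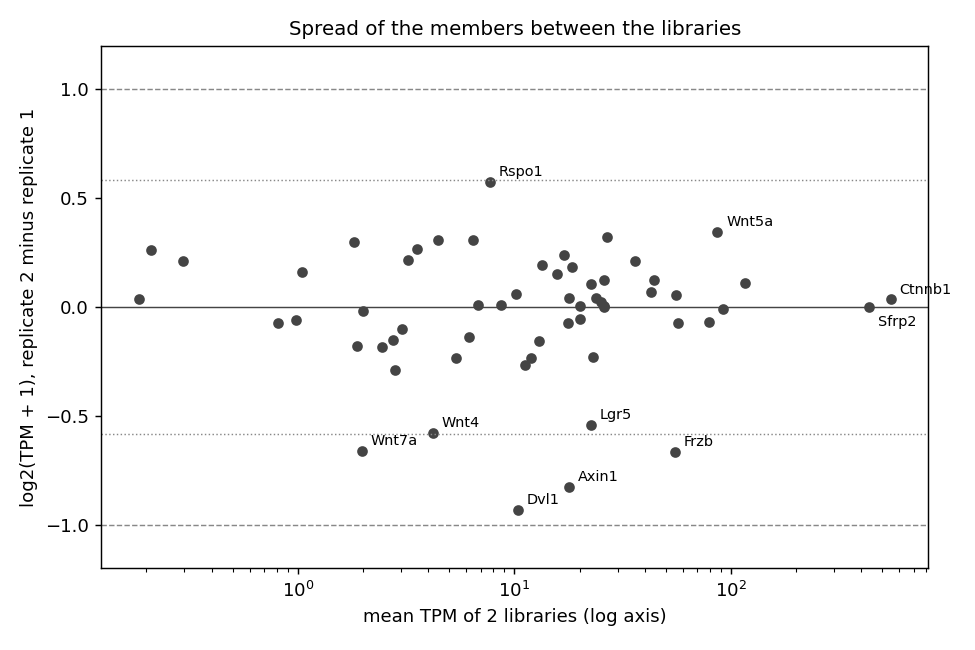
Difference in log2(TPM + 1), replicate 2 minus replicate 1, against mean TPM (log axis) for the 59 members with a count; dashed lines mark 2-fold and dotted lines 1.5-fold. All points lie within 2-fold, and Dvl1, Axin1, Frzb and Wnt7a fall below the lower dotted line.

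Beside the 60 members, 51 other genes of the pathway were listed, and 49 reached 1 TPM in both libraries, with 39 at a mean of 10 TPM or more. Over all protein-coding genes these lines were passed by 61.8% and 42.4%, as given above, and the counts by role below stand beside the same shares. All 4 alternative WNT receptors passed 10 TPM, led by Ptk7 at 106 and 109 TPM and Ror2, a Wnt5a receptor, at 34.9 and 34.7 TPM. Ryk was at 20.6 and 18.8 TPM and Ror1 at 18.5 and 20.1 TPM. Of the genes of receptor turnover, the Dkk co-receptors Kremen2 and Kremen1 were at 20.1 ± 1.02 and 19.8 ± 0.75 TPM. The ubiquitin ligases on which R-spondins act were lower, with Znrf3 at 9.77 ± 0.45 TPM and Rnf43 at 4.16 ± 0.62 TPM (SD, n = 2). Notum, which removes the lipid from WNTs, was at 4.17 and 5.17 TPM.

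Among other secreted or membrane modulators, 7 of 9 reached 1 TPM in both libraries. Cthrc1, which favours the non-canonical branch, was at 124 and 117 TPM, and Sostdc1, an Lrp-binding inhibitor of tooth and hair placodes, at 50.4 and 53.3 TPM. Dkkl1 had 1.71 and 0.85 TPM, and Sost, the bone inhibitor sclerostin, 0.12 and 0.08 TPM. All 16 regulators of the destruction complex and Dvl reached 1 TPM, led by the kinases Csnk1a1 at 253 and 243 TPM and Csnk1d at 131 and 132 TPM, with Amer2 at 7.89 and 7.60 TPM and Dact2 at 1.84 and 1.47 TPM at the low end. All 12 nuclear cofactors did so too, led by Aes at 396 and 368 TPM and the corepressor Ctbp1 at 288 and 281 TPM. Lowest among these 12 were Pygo1 at 9.69 and 9.67 TPM and Bcl9l at 8.20 and 8.56 TPM. Of 4 known target genes, Ccnd1 was at 106 and 126 TPM, Myc at 47.1 and 48.4 TPM, Bambi at 17.5 and 19.1 TPM and Sp5 at 5.41 and 6.43 TPM.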

How the data were processed

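Total RNA from pooled E12.5 facial prominences was measured in 2 libraries of 1 group, taken from the labels. By its title the series has been superseded by another, so these are older tables. The deposited tables give, per the file headers, an expected count (estimated reads), a TPM, a posterior mean TPM and an FPKM for each gene and transcript, and an isoform share in percent. The deposited FPKM values and posterior means served as alternatives only. Reads were placed on mm10 with annotation M4, per the deposited notes, while aligner and counter were not given in the sources used here. Deposited interval bounds of TPM, a signal per the file headers, come with no stated level and are not printed. TPM totals include spike-ins and small RNA entries, and the labels keep molecules over a size limit, so short transcripts are under-measured. Symbols, coordinates (1-based) and exons came from GENCODE M21 (GRCm38).

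Levels were given as TPM, with mean ± SD (n = 2). The pools are labelled biological replicates. Library differences used log2(TPM + 1). No test was possible with 1 group. Pairs were called past 2-fold in both libraries. Members with under 30 counts got exact 95% Poisson intervals, except that a count of 0 is given with the limit of 3 counts. Under 3 counts in both libraries is called not detected. Alternatives used FPKM, posterior means, CPM, TMM and RLE factors from edgeR 4.0.16 (R 4.3.3), other minimums and pseudocounts. Python 3.11.15, numpy 2.4.6 and pandas 2.3.3 did the rest, and the library comparison was tested on simulated data. Each class is described by its highest and lowest members and all with a mean of 10 TPM or more; the other pathway genes by the extremes of each role. The members, lists, pairs and alternatives were chosen with earlier results of these data known.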

Additional observations from a re-analysis of the deposited data

How the results depend on the processing

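The counts of members and pathway genes past the level minimums, of pairs past 2-fold and of transcripts moved by less than 1.5 times under FPKM, posterior means, other scalings and other units. Exceptions were the members with a mean past 20 TPM in place of 10 TPM, of which there were 23, and the transcripts at a 5% share, of which there were 12. A pseudocount of 0.1 TPM put 2 members, Wnt1 and Dvl1, past 2-fold between the libraries, and a 1.5-fold line gave 4. With either library left out, the counts were 54 to 54 members at 1 TPM, 34 to 34 at a mean of 10 TPM, 49 to 50 other pathway genes, 18 to 20 pairs and 6 to 6 transcripts. Leaving out a library gives no value for the difference between libraries. The share of expected counts, an alternative chosen after seeing the data, also gave 5 transcripts. Among pairs, CPM, counts not divided by length, lost Wnt4 under Wnt11 (log2 -0.87) and added Wnt2 over Wnt16 (1.28) and Dkk3 over Dkk1 (1.32). FPKM values were 0.623 times the TPM at the median, and TPM over protein-coding genes alone 1.22 times. Taking 1 library alone moved members' levels to between 0.476 and 1.52 times their mean, both extremes being Wnt1. No pair past 2-fold changed direction. Of the pairs under 2-fold, CPM turned 3, Wnt3 over Wnt9b (mean log2 -0.11), Rspo3 over Rspo2 (-0.13) and Lef1 over Tcf7l2 (0.05), and leaving out replicate 1 turned Axin2 over Axin1 (0.19) and Lgr4 over Lgr5 (0.02). No paired analysis was possible because the series has 1 group. Depth limits the members with under 30 counts, Wnt1, Wnt8a, Wnt8b, Rspo4 and Dkk4.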
